A study of Mus musculus and Rattus norvegicus with 24 samples.

Results

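Asns, Aldh18a1, Pycr1, Prodh, Cth, Cbs, Got1 and Gpt2 encode 8 enzymes that make or turn over asparagine, proline and cysteine or move amino groups between amino acids. They were taken by symbol from the 54532 gene IDs of the mouse heart table and the 17301 named genes kept from the rat table, and all 8 were found in both. Asns, Aldh18a1 and Pycr1 were lower in ATF4 cKO hearts than in ctrl hearts after 3 days of pressure load, while Prodh and Got1 were higher there. In that contrast 17.1% of all genes tested were called. Without the 2 libraries of that day that stood apart, only Asns stayed called, in a fit that called 450 of the 15535 genes tested. The edgeR test of whether the response to 3 days of load differed between the genotypes called 0 of the 7 members tested. It called 0.669% of all genes tested. In rat heart muscle cells given ATF4, 6 of the 8 rose, where 24.2% of all genes tested rose, Cth by the largest ratio of mean FPKM, 44.1-fold.

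RNA was sequenced from 18 mouse hearts in 6 groups of 3 and, in a second experiment, from 6 cultures of NRVM (neonatal rat ventricular myocytes, the muscle cells of newborn hearts). Mouse groups were ctrl or cKO, each taken after a sham operation or at 3 or 7 days of TAC (transverse aortic constriction, in which the narrowed aorta raises the load on the left ventricle). The titles give cKO and the series title gives ATF4; the sources used here name no Cre driver, floxed allele, strain or age of the mice, so in which heart cells Atf4 was lost is not known from them. The groups were taken from the titles, although 1 label field of the mouse samples has the heading overexpression and so contradicts them. Rat cultures received adenovirus for GFP (adGFP) or for ATF4 (adATF4) in serum-free medium, after plating in medium with serum and bromodeoxyuridine. The labels do not say whether replicates came from separate animals or platings, so the spread behind each p-value is that between these samples and may in part be technical.

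ATF4 is a transcription factor whose protein is made when translation slows under amino acid shortage or other stress, and it binds a composite element known as the C/EBP-ATF response element. Its known targets in other cells include Asns, which makes asparagine from aspartate and glutamine. Aldh18a1 and Pycr1 carry out early and last steps of proline synthesis from glutamate in mitochondria, and Prodh starts the breakdown of proline. Cbs and Cth are the enzymes of transsulfuration, which carries the sulfur of homocysteine into cysteine; both also release hydrogen sulfide. Got1 is the cytosolic aspartate transaminase and Gpt2 the mitochondrial alanine transaminase, which exchange amino groups between glutamate and aspartate or alanine.

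The core of that element was searched as TGATGNAA on both strands in the 250 bases before the start of each gene. RefSeq promoters (build GRCm38.p6) were matched for 7 of the 8 members; Cth had no entry. Asns, Pycr1 and Got1 held a match, and Aldh18a1, Prodh, Cbs and Gpt2 held none in this window. The Prodh window, at chr16:18089141-18089440, lay inside the deposited gene, which begins at 18090203 on the minus strand. The bases before that deposited start of Prodh were not searched. Among all genes with such a window, 1056 of 27025 (3.91%) held a match. The 30 bases around each match are shown 5′ to 3′ on the gene's strand, with the match in capitals; in Got1 the element lies on the opposite strand, so its reverse complement is in capitals.
Asns, chr6:7693214-7693243, minus strand: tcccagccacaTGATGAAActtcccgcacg
Pycr1, chr11:120643833-120643862, minus strand: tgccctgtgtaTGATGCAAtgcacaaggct
Got1, chr19:43524689-43524718, minus strand: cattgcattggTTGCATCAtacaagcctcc
The match began 23 bases before the RefSeq start in Asns, inside a GENCODE exon, 103 bases before it in Pycr1 and 102 bases before it in Got1. The window outside annotated exons is shown for the last 2, as context of the match.
Pycr1: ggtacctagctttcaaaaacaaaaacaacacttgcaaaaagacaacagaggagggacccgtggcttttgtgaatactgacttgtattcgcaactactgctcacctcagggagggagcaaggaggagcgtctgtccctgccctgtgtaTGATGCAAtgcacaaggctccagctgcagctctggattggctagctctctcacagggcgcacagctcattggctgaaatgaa
Got1: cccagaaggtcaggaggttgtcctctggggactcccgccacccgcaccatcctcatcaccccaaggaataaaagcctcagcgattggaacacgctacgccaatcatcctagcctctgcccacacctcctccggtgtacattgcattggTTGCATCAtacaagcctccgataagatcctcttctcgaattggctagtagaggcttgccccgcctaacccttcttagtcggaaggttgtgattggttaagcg
A match is a run of letters and not a measured binding site, and the series holds no binding data.

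Mouse library totals were 15106975 to 18112798 counts, and all 6 cardiomyocyte markers were detected in every group. Levels of Atf4 RNA in cKO hearts lay below those of ctrl hearts by 1.26, 1.74 and 1.37 log2 units at sham, TAC 3 d and TAC 7 d (log2 fold change -1.26, -1.74 and -1.37; edgeR adjusted p = 0.0487, 0.000334 and 0.00423). In the rat cells Atf4 stood at 276 ± 31.1 FPKM in the adGFP cultures and at 2563 ± 143 FPKM in the adATF4 cultures (SD, n = 3). The library of ctrl TAC 3 d replicate 3 stood apart, at 71.3 on a principal component with 45.6% of the variance where the other 17 lay between -31.8 and 45.1, and its mitochondrial share of counts was 10.6% against 14.5% to 23.0%. On the next component, with 11.3%, cKO TAC 3 d replicate 2 lay at 39.9 and cKO TAC 7 d replicate 2 at 25.6, and the other 16 between -16.4 and 10.9. Where a result rests on 1 of these libraries, its value without that library is added.

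Levels are compared between genes only as the authors' FPKM, which divide by gene length. In ctrl sham hearts Got1 stood far above the rest at 351 ± 43.7 FPKM (SD, n = 3). Gpt2 followed at 8.41 ± 1.03, Prodh at 4.30 ± 0.755 and Aldh18a1 at 2.54 ± 0.222 FPKM. Asns (0.720 ± 0.162), Cth (0.681 ± 0.488) and Pycr1 (0.309 ± 0.0841 FPKM) were low, with Asns and Cth not separated beyond their spread, and Cbs was lowest at 0.0773 ± 0.0324 FPKM. Each Got1 value rests on 7763 to 18352 counts per library, whereas Asns had 23 to 111, Pycr1 14 to 231 and Cth 4 to 52 counts, so counting error weighs most on the last 3. Cbs had 0 to 12 counts, did not pass the filter on low counts and is not among the 7 members tested in hearts.

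In cultured rat myocytes with adGFP the order of FPKM was different below Got1. There Got1 was at 67.1 ± 1.28 FPKM, Asns at 32.7 ± 2.63 and Aldh18a1 at 14.4 ± 2.55 FPKM (SD, n = 3). Prodh (4.28 ± 0.979), Gpt2 (3.54 ± 0.853), Cth (3.19 ± 0.609) and Pycr1 (2.56 ± 1.52 FPKM) lay within each other's spread, and Cbs was at 0.1004 ± 0.0794 FPKM. Levels are not set against those of the hearts, since the tables were normalized separately.

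**Figure D1:**
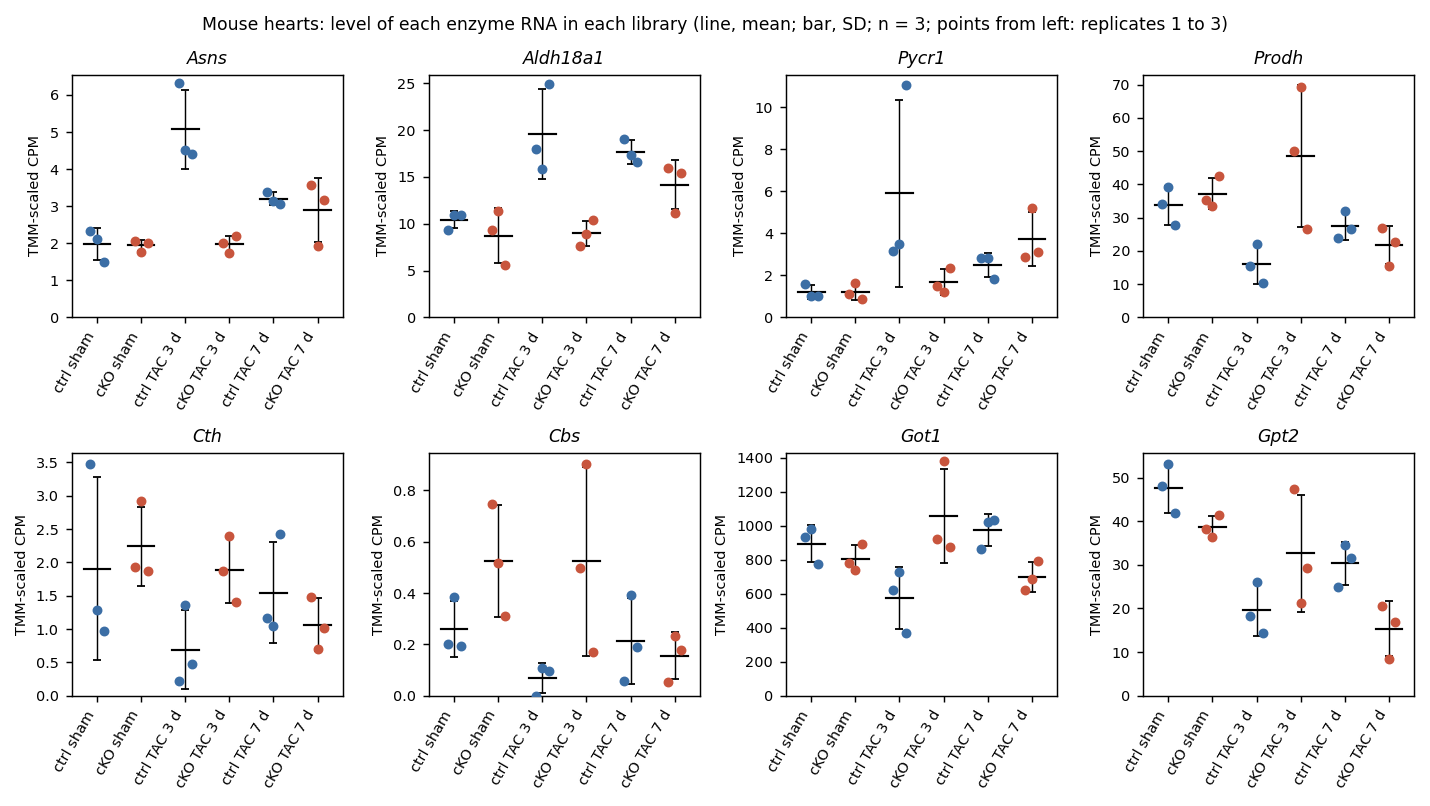
Level of each enzyme RNA in TMM-scaled CPM in the 18 mouse libraries, by group; points are libraries, lines the mean of 3 and bars the SD. In ctrl TAC 3 d the 3 Asns points, at 4.40 to 6.31 CPM, lie above those of all other groups, and the Pycr1 mean there is carried by 1 library at 11.05 CPM.

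Asns RNA was higher in ctrl hearts at TAC 3 d than in any other group. Its gene lies at chr6:7675169-7693254 on the minus strand (GRCm38, as for all positions of genes below). The 3 libraries read 2.34, 2.11 and 1.49 CPM in ctrl sham and 2.06, 1.78 and 1.99 CPM in cKO sham. At TAC 3 d they read 6.31, 4.53 and 4.40 CPM in ctrl hearts and 2.00, 1.73 and 2.19 CPM in cKO hearts. At TAC 7 d they read 3.40, 3.14 and 3.06 CPM in ctrl hearts and 3.58, 1.93 and 3.17 CPM in cKO hearts. All 3 ctrl libraries at 3 days lay above every other heart, the cKO libraries at 3 days lay within the sham range, and at 7 days 2 cKO libraries were at ctrl level and 1 at sham level. The log2 fold change of cKO against ctrl at TAC 3 d was -1.35 ± 0.25 (SE; edgeR adjusted p = 0.00312), 2.56-fold lower, and -1.17 to -1.47 with each of the 6 libraries left out, called each time. Without both TAC 3 d libraries that stood apart it was -1.39 (adjusted p = 0.0242). In a fit of the 2 groups alone it was -1.37 with adjusted p = 0.0667. In the ctrl hearts Asns rose from sham to TAC 3 d by 1.36 ± 0.25 log2 units (adjusted p = 0.00131), and in the cKO hearts the change was 0.03 ± 0.26 (adjusted p = 0.984).

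Proline synthesis enzymes gave the same order of groups at 3 days. Aldh18a1 (chr19:40550257-40588463, minus strand) encodes pyrroline-5-carboxylate synthase, the enzyme that commits glutamate to proline and ornithine. Its libraries read 9.36, 10.95 and 10.92 CPM in ctrl sham and 9.34, 11.3 and 5.55 CPM in cKO sham. After 3 days of TAC they read 18.0, 15.9 and 25.0 CPM in ctrl hearts and 7.67, 8.86 and 10.4 CPM in cKO hearts. After 7 days of TAC they read 19.0, 17.3 and 16.6 CPM in ctrl hearts and 16.0, 11.1 and 15.4 CPM in cKO hearts. Every banded ctrl heart lay above every sham heart, and the cKO hearts at 3 days did not leave the sham range. The difference of cKO from ctrl at TAC 3 d was -1.13 ± 0.22 log2 units (edgeR adjusted p = 0.00445) and stayed called with each library left out (-0.94 to -1.26). Without both libraries that stood apart it was -0.93 with adjusted p = 0.0576, and in a fit of the 2 groups alone -1.14 with adjusted p = 0.0574. A processed pseudogene, Gm15801, overlaps Aldh18a1 on the same strand; it had 22 to 57 counts per library, and its difference at TAC 3 d was 0.39 ± 0.33 log2 units (adjusted p = 0.443).

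Pycr1 (chr11:120635712-120643769, minus strand), a mitochondrial pyrroline-5-carboxylate reductase that completes proline synthesis, had the largest fold change between cKO and ctrl at TAC 3 d of the 7 members tested, with uneven libraries. It read 1.60, 1.02 and 1.03 CPM in ctrl sham and 1.12, 1.66 and 0.872 CPM in cKO sham. At TAC 3 d it read 3.18, 3.49 and 11.05 CPM in ctrl hearts and 1.497, 1.201 and 2.363 CPM in cKO hearts. At TAC 7 d it read 2.84, 2.81 and 1.85 CPM in ctrl hearts and 2.86, 5.19 and 3.11 CPM in cKO hearts. The ctrl and cKO libraries did not overlap at 3 days, but ctrl TAC 3 d replicate 3 lay far above the other ctrl libraries. The difference of cKO from ctrl at TAC 3 d was -1.80 ± 0.45 log2 units (edgeR adjusted p = 0.0137). It was -0.99 (adjusted p = 0.103) without ctrl TAC 3 d replicate 3, -1.61 (adjusted p = 0.0662) without cKO TAC 3 d replicate 2, and -0.81 (adjusted p = 0.278) without both. In ctrl hearts the rise from sham to TAC 3 d was 2.28 ± 0.46 log2 units (adjusted p = 0.002465), and 1.46 (adjusted p = 0.0136) without ctrl TAC 3 d replicate 3.

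Prodh (chr16:18060357-18090203, minus strand), which oxidises proline in mitochondria, moved opposite to the synthesis enzymes. Its libraries read 34.2, 39.3 and 27.6 CPM in ctrl sham and 35.4, 33.6 and 42.4 CPM in cKO sham. After 3 days of TAC they read 15.3, 22.2 and 10.3 CPM in ctrl hearts and 49.9, 69.3 and 26.4 CPM in cKO hearts. After 7 days of TAC they read 23.8, 32.0 and 26.5 CPM in ctrl hearts and 26.9, 15.6 and 22.8 CPM in cKO hearts. The 3 ctrl libraries at 3 days lay below all shams and below all cKO libraries of that day, which spread widely. Prodh was 3.04-fold higher in cKO than in ctrl at TAC 3 d (log2 fold change 1.61 ± 0.31, edgeR adjusted p = 0.00387), and 1.26 to 1.92 log2 units higher with each library left out, called each time. Without both libraries that stood apart the value was 1.00 with adjusted p = 0.0771, and in a fit of the 2 groups alone 1.59 with adjusted p = 0.1002. In ctrl hearts Prodh fell by 1.08 log2 units from sham to TAC 3 d (SE 0.31, adjusted p = 0.0161); without ctrl sham replicate 2 it was -0.96 (adjusted p = 0.0615) and without ctrl TAC 3 d replicate 3 -0.83 (adjusted p = 0.0853). Dgcr6 overlaps Prodh on the opposite strand and the strand setting of the counting is not given, so their reads cannot be told apart where they overlap. Dgcr6 had 349 to 655 counts against 215 to 923 for Prodh, and its own difference of cKO from ctrl at TAC 3 d was 0.50 ± 0.12 log2 units (adjusted p = 0.00980).

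Transsulfuration enzymes were at low levels in hearts. Cth (chr3:157894248-157925077, minus strand) splits cystathionine to give cysteine. It read 3.47, 1.28 and 0.969 CPM in ctrl sham and 1.93, 2.92 and 1.87 CPM in cKO sham. At TAC 3 d it read 0.227, 1.36 and 0.478 CPM in ctrl hearts and 1.87, 2.40 and 1.41 CPM in cKO hearts and the groups did not overlap. At TAC 7 d it read 1.17, 1.04 and 2.42 CPM in ctrl hearts and 1.49, 0.700 and 1.02 CPM in cKO hearts. The difference of cKO from ctrl at TAC 3 d was 1.44 ± 0.57 log2 units (edgeR adjusted p = 0.0907), not past the threshold. Without ctrl TAC 3 d replicate 2 it was 2.36 (adjusted p = 0.0134). With each of the 6 libraries left out in turn it ran from 1.04 to 2.36 (adjusted p = 0.0134 to 0.281). From sham to TAC 3 d in ctrl hearts the value was -1.46 ± 0.57 (adjusted p = 0.0690), -1.77 (adjusted p = 0.0477) without ctrl sham replicate 3 and -2.38 (adjusted p = 0.00943) without ctrl TAC 3 d replicate 2. Over the 6 libraries left out in turn this value ran from -2.38 to -0.70 (adjusted p = 0.00943 to 0.420). Gm43314, an unclassified gene model on the same strand, overlaps Cth and had 0 to 18 counts. Cbs (chr17:31612623-31637199, minus strand), which joins homocysteine to serine, had 0, 2 and 2 counts in ctrl TAC 3 d and 8, 12 and 3 counts in cKO TAC 3 d. When the filter on low counts was dropped, its difference there was called (log2 fold change 2.73, edgeR adjusted p = 0.0361), a value that rests on these few counts; in the other 12 contrasts of the hearts it was not called.

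The transaminases fell from sham to TAC 3 d in ctrl hearts. Got1 (chr19:43499752-43524605, minus strand) read 932, 981 and 772 CPM in ctrl sham and 783, 737 and 893 CPM in cKO sham. After 3 days of TAC it read 621, 730 and 371 CPM in ctrl hearts and 920, 1378 and 873 CPM in cKO hearts. After 7 days of TAC it read 865, 1024 and 1032 CPM in ctrl hearts and 621, 684 and 793 CPM in cKO hearts. The ctrl hearts lay below the cKO hearts at 3 days and above them at 7 days, without overlap on either day. The difference of cKO from ctrl at TAC 3 d was 0.88 ± 0.22 log2 units (edgeR adjusted p = 0.0132), 0.62 (adjusted p = 0.0514) without ctrl TAC 3 d replicate 3, 0.64 (adjusted p = 0.0771) without cKO TAC 3 d replicate 2 and 0.38 (adjusted p = 0.199) without both. From sham to TAC 3 d in ctrl hearts it fell by 0.64 log2 units (SE 0.22, adjusted p = 0.0368). That call was lost without replicate 1 (-0.61, adjusted p = 0.0940) or 2 (-0.57, adjusted p = 0.114) of ctrl sham, without replicate 1 (-0.70, adjusted p = 0.0542) or 3 (-0.39, adjusted p = 0.161) of ctrl TAC 3 d, and when libraries were scaled by their totals alone (-0.44, adjusted p = 0.0554). The authors' deposited table gives adjusted p = 0.0564 for this fall.

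Gpt2 (chr8:85492576-85527560, plus strand) was called lower than sham by edgeR in ctrl hearts at 3 days and in cKO hearts at 7 days. It read 48.1, 53.2 and 41.8 CPM in ctrl sham and 38.1, 36.3 and 41.5 CPM in cKO sham. At TAC 3 d it read 18.4, 26.0 and 14.3 CPM in ctrl hearts and 47.3, 21.3 and 29.3 CPM in cKO hearts. At TAC 7 d it read 24.8, 34.5 and 31.6 CPM in ctrl hearts and 20.65, 8.344 and 16.99 CPM in cKO hearts. The banded ctrl hearts lay below the ctrl shams on both days and overlapped each other, and the cKO hearts at 7 days lay below all other cKO hearts. Against sham it fell by 1.29 log2 units in ctrl hearts at TAC 3 d (SE 0.30, edgeR adjusted p = 0.00521) and by 1.33 in cKO hearts at TAC 7 d (SE 0.30, adjusted p = 0.00785), called with every library left out in turn in each of the 2 contrasts. In cKO hearts at 3 days the value was -0.24 ± 0.29 (adjusted p = 0.864), and in ctrl hearts at 7 days -0.66 ± 0.29 (adjusted p = 0.178). For ctrl hearts at 7 days the authors' deposited table gives adjusted p = 0.000284. At TAC 3 d cKO and ctrl differed by 0.74 ± 0.30 log2 units (adjusted p = 0.0907), and by 1.00 (adjusted p = 0.0328) without ctrl TAC 3 d replicate 2. With each of the 6 libraries of that day left out in turn, the difference ran from 0.38 to 1.00 (adjusted p = 0.0328 to 0.411). The 2 groups overlapped.

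**Figure D2:**
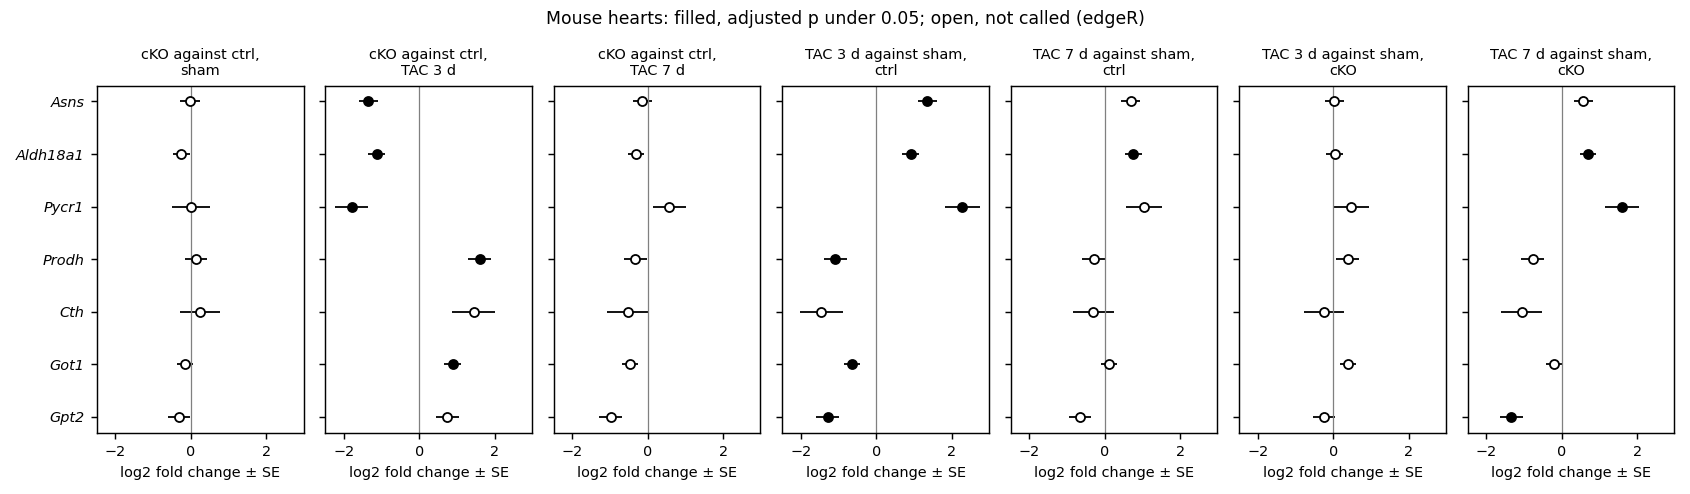
Log2 fold changes with SE of the 7 members tested, in 7 contrasts of the mouse hearts; filled points have an edgeR adjusted p under 0.05. In cKO against ctrl the filled points stand at TAC 3 d, with Asns, Aldh18a1 and Pycr1 to the left and Prodh and Got1 to the right.

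Counted over the set, edgeR with all libraries called members between cKO and ctrl hearts at TAC 3 d and at neither sham nor TAC 7 d, where DESeq2 called Gpt2. In sham hearts 0 of the 7 tested members passed in edgeR, 0 had an unadjusted p under 0.05 and DESeq2 called 0, where 0.0193% of all genes were called (0.00644% higher and 0.0129% lower). At TAC 3 d 5 of 7 were called, 2 higher and 3 lower in cKO, where 17.1% of the 15535 genes tested were called (7.73% higher and 9.36% lower). The median log2 fold change was 0.74 over the 7 members and 0.02 over all genes. The count was 3 without ctrl TAC 3 d replicate 3, 3 without cKO TAC 3 d replicate 2, 1 (Asns) without both, 3 (Asns, Aldh18a1 and Prodh) when replicate 2 of cKO TAC 7 d was left out as well, and 0 in the fit of the 2 groups alone. Over all genes, 450 were called without both, 747 without the 3 libraries and 113 with the 2 groups alone, in place of 2655. With library totals in place of TMM scaling the median of all genes moved to -0.20, and 544 genes were called higher and 2903 lower, against 1201 and 1454; the same 5 members were called in the same directions. The authors' deposited table also has adjusted p under 0.05 for these 5, from 0.000445 for Aldh18a1 to 0.0428 for Got1.

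**Figure D3:**
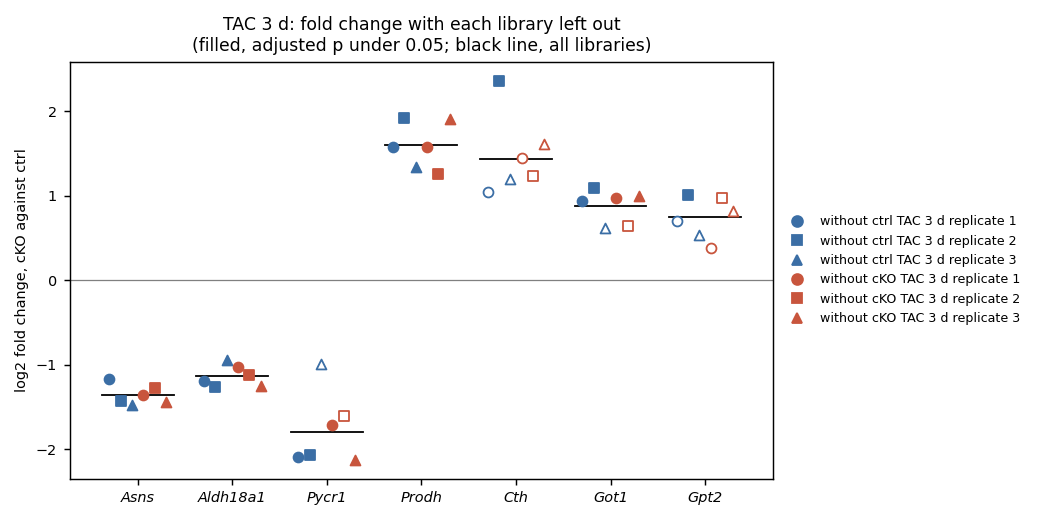
Log2 fold change of cKO against ctrl at TAC 3 d for the 7 members tested, with each of the 6 TAC 3 d libraries left out in turn (symbols; filled, edgeR adjusted p under 0.05) and with all libraries (black line). Asns, Aldh18a1 and Prodh stay filled throughout, while Got1 and Pycr1 turn open without replicate 3 of ctrl TAC 3 d or replicate 2 of cKO TAC 3 d.

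In ctrl hearts 6 of 7 members changed from sham to TAC 3 d, where 27.2% of all genes were called (14.8% higher and 12.4% lower). With library totals in place of TMM scaling 4086 genes were called higher and 870 lower, against 2305 and 1920, and the median of all genes moved to 0.23 log2 units; 5 of the 6 members were then called, in the same directions, and Got1 was not. Asns, Aldh18a1 (0.91 ± 0.22 log2 units, edgeR adjusted p = 0.00684) and Pycr1 rose, and Gpt2, Prodh and Got1 fell. In cKO hearts 0 of 7 changed from sham to TAC 3 d in edgeR, 0 had an unadjusted p under 0.05 and DESeq2 called 0, where 0% of all genes were called (1311 of 15535 had an unadjusted p under 0.05, and DESeq2 called 31). The contrast of cKO with ctrl at TAC 3 d and that of TAC 3 d with sham in ctrl hearts share the 3 ctrl TAC 3 d libraries, so they are not separate evidence. The response to 3 days of TAC was compared between the genotypes directly by the interaction. It was called for 0 of 7 members in edgeR, where 0.669% of all genes were called (0.18% higher and 0.489% lower); 6 of 7 members and 3290 of 15535 genes had an unadjusted p under 0.05, and DESeq2 called 3 members and 863 genes. Asns had an interaction of -1.33 ± 0.36 log2 units (adjusted p = 0.0791), Prodh 1.46 ± 0.43 (adjusted p = 0.0907) and Got1 1.04 ± 0.31 (adjusted p = 0.0938). With replicate 2 of ctrl TAC 3 d left out, the adjusted p was 0.0343 for Asns (-1.40), 0.0217 for Prodh (1.78) and 0.0222 for Got1 (1.25). Prodh alone of the 7 also passed without cKO TAC 3 d replicate 3, at 1.76 (adjusted p = 0.0205). Over the 12 libraries left out in turn, Asns ran from -1.46 to -1.14 (adjusted p = 0.0343 to 0.173). Prodh then ran from 1.12 to 1.78 (0.0205 to 0.199) and Got1 from 0.78 to 1.25 (0.0222 to 0.205). Without both TAC 3 d libraries that stood apart, the interaction was called for 0 of the 15535 genes.

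At TAC 7 d 0 of 7 members were called between cKO and ctrl in edgeR, where 0.257% of all genes were called (0.116% higher and 0.142% lower); Gpt2 and Got1 had an unadjusted p under 0.05. Gpt2 was at -0.98 ± 0.30 log2 units (edgeR adjusted p = 0.136, DESeq2 adjusted p = 0.0397) and Got1 at -0.48 ± 0.22 (edgeR adjusted p = 0.272, DESeq2 adjusted p = 0.192). With each of the 6 TAC 7 d libraries left out in turn, edgeR called neither. Gpt2 then ran from -1.26 to -0.69 (adjusted p = 0.121 to 0.539) and Got1 from -0.58 to -0.40 (0.222 to 0.624). Both passed when the 2 TAC 3 d libraries that stood apart were left out of the model, at adjusted p = 0.0302 for Gpt2 and 0.0300 for Got1, in a fit that called 1219 genes in place of 40, and the authors' deposited table gives 0.0211 and 0.0210. Over the 3 conditions together 0 of 7 were called in edgeR, where 0.766% of all genes were called (0.406% higher and 0.36% lower); 3 had an unadjusted p under 0.05 and DESeq2 called 2. Aldh18a1 came nearest there at -0.56 ± 0.13 (adjusted p = 0.0516), and passed without replicate 2 of cKO sham (adjusted p = 0.0252), replicate 2 (0.0325) or 3 (0.0394) of ctrl TAC 3 d, or replicate 3 of cKO TAC 3 d (0.0323).

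Against sham, 1 of 7 members changed by TAC 7 d in ctrl hearts, where 7.29% of all genes were called (4.26% higher and 3.03% lower). This was Aldh18a1, which rose by 0.76 ± 0.22 log2 units (edgeR adjusted p = 0.0473) and was not called with any of the 6 libraries left out (adjusted p = 0.0676 to 0.172). The authors' deposited table gives adjusted p = 0.000204 for this rise. In cKO hearts 3 of 7 changed by TAC 7 d, where 21.8% of all genes were called (11.4% higher and 10.4% lower). Besides the fall of Gpt2, Pycr1 rose by 1.60 ± 0.46 (adjusted p = 0.0234) and Aldh18a1 by 0.70 ± 0.22 (adjusted p = 0.0361). The Pycr1 call was lost without replicate 1 (adjusted p = 0.0709) or 3 (0.0890) of cKO sham, or replicate 2 of cKO TAC 7 d (0.109). The Aldh18a1 call was lost without replicate 1 (adjusted p = 0.0688) or 3 (0.46 log2 units, adjusted p = 0.146) of cKO sham, or replicate 1 (0.112) or 3 (0.0888) of cKO TAC 7 d, and its sham and 7-day libraries overlapped. Asns, which was above sham in the ctrl hearts at 3 days, was at 0.58 ± 0.25 in cKO hearts at TAC 7 d (adjusted p = 0.111). The interaction at 7 days was called for 0 of 7 members in edgeR, with 0 at an unadjusted p under 0.05 and 0 in DESeq2, where 0% of all genes were called in edgeR and 1 gene in DESeq2.

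From 3 to 7 days of TAC, different members passed in each genotype. In ctrl hearts 1 of 7 members changed, where 14.8% of all genes were called (6.95% higher and 7.81% lower): Got1 rose by 0.76 ± 0.22 log2 units (edgeR adjusted p = 0.0282). That call was lost without replicate 3 of ctrl TAC 3 d (0.51, adjusted p = 0.114), or replicate 2 (0.0996) or 3 (0.0811) of ctrl TAC 7 d. In cKO hearts 3 of 7 changed, where 19.5% of all genes were called (9.26% higher and 10.3% lower). Prodh fell by 1.15 (SE 0.30, adjusted p = 0.0168), Gpt2 fell by 1.09 (SE 0.30, adjusted p = 0.0208), and Aldh18a1 rose by 0.66 ± 0.22 (adjusted p = 0.0478). Each of these was lost without some library. Prodh was not called without replicate 1 (adjusted p = 0.0523) or 2 (0.0843) of cKO TAC 3 d, or replicate 2 of cKO TAC 7 d (0.0756). Gpt2 was not called without replicate 1 of cKO TAC 3 d (-0.72, adjusted p = 0.119) or replicate 2 of cKO TAC 7 d (0.0829). Aldh18a1 was not called without replicate 1 (adjusted p = 0.158) or 2 (0.105) of cKO TAC 3 d, or replicate 1 (0.134) or 3 (0.114) of cKO TAC 7 d.

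The change of the genotype difference from 3 to 7 days was tested in a contrast added after the data were seen. It was called for 5 of 7 members, where 21% of all genes were called (11% higher and 10% lower). Asns (1.21 ± 0.35 log2 units, edgeR adjusted p = 0.0236) and Pycr1 (2.37 ± 0.62, adjusted p = 0.0169) were relatively higher in cKO at 7 than at 3 days. Prodh (-1.94 ± 0.43, adjusted p = 0.00873), Gpt2 (-1.72 ± 0.42, adjusted p = 0.0127) and Got1 (-1.36 ± 0.31, adjusted p = 0.009175) were relatively lower. Got1, Gpt2, Prodh and Pycr1 stayed called with each of the 12 TAC libraries left out, with Pycr1 at 1.56 without ctrl TAC 3 d replicate 3. Asns was not called without replicate 1 of ctrl TAC 3 d (adjusted p = 0.0541), 2 of cKO TAC 3 d (0.0513), 2 (0.0524) or 3 (0.0520) of ctrl TAC 7 d, or 1 of cKO TAC 7 d (0.0585). Without both TAC 3 d libraries that stood apart, Got1 (-0.87, adjusted p = 0.0164), Gpt2 (-1.75, adjusted p = 0.0163) and Prodh (-1.33, adjusted p = 0.0348) were called. That fit called 1669 genes in place of 3266.

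Markers of several cell types, though not of all, moved with these groups. Summed over 6 genes of dividing cells (Mki67, Top2a, Plk1, Ccnb1, Cdk1 and Bub1b, all detected), the level was 7.56 to 12.9 CPM in ctrl sham, 4.36 to 15.9 in cKO sham, 77.6 to 156 in ctrl TAC 3 d, 4.51 to 19.5 in cKO TAC 3 d, 37.1 to 72.0 in ctrl TAC 7 d and 23.6 to 68.5 CPM in cKO TAC 7 d. Summed over 7 fibroblast genes, all detected, it was 916 to 1015 CPM in ctrl sham, 830 to 1235 in cKO sham, 2569 to 12486 in ctrl TAC 3 d with ctrl TAC 3 d replicate 3 at the top, 1335 to 1560 in cKO TAC 3 d, 1208 to 2217 in ctrl TAC 7 d and 2227 to 3621 CPM in cKO TAC 7 d. The 6 cardiomyocyte genes summed to 61949 to 69118 CPM in ctrl sham and 34198 to 58291 in ctrl TAC 3 d, against 59777 to 67006 CPM in cKO TAC 3 d. At TAC 7 d they summed to 57251 to 66637 CPM in ctrl hearts and 42673 to 54434 CPM in cKO hearts. The 6 macrophage and leukocyte genes summed to 131 to 276 CPM in ctrl TAC 3 d and 103 to 140 CPM in cKO TAC 3 d. The 5 endothelial genes summed to 666 to 1026 CPM in ctrl TAC 3 d and 732 to 920 CPM in cKO TAC 3 d. Their ctrl sham range was 921 to 1006 CPM. The 5 smooth muscle and pericyte genes gave 641 to 871, 848 to 955 and 924 to 989 CPM in that order. The part of these cells in the values of the enzymes was not tested, and in whole hearts fewer cells of a type cannot be told apart from less RNA per cell.

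By log2 level over the 18 heart libraries, the genes most like each member were sought among all tested genes, as a description with no test, since the libraries share their groups. The 3 most like Asns were Melk (Pearson r 0.95), Tacc3 (0.94) and Kif18b (0.93), all genes of the cell division cycle. Those most like Aldh18a1 were Plk1 (0.93), a mitotic kinase, Ripk3 (0.93) and Cenpe (0.92), and those most like Pycr1 were Nipsnap3b (0.98), Tubb2b (0.96) and Emilin1 (0.95). For Prodh they were Zfand1 (0.94), Rnf10 (0.94) and Pde4c (0.93), for Got1 D17Wsu92e (0.96), Klhdc2 (0.96) and Mfn1 (0.95), and for Gpt2 Pex6 (0.97), Msrb2 (0.97) and Adamts7 (0.97). Cth had the weakest, with Gchfr (0.86), Yjefn3 (0.85) and Rab17 (0.82). Without ctrl TAC 3 d replicate 3 these values ran from 0.78 to 0.97.

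In the rat myocytes all 7 members that passed the filter (at least 1 FPKM in at least 3 libraries) changed with adATF4, where 50.6% of the 10571 genes tested were called (24.2% higher and 26.4% lower). Asns read 34.1, 29.7 and 34.4 FPKM with adGFP and 237, 232 and 235 FPKM with adATF4. Cth read 3.188, 2.579 and 3.797 FPKM with adGFP and 154, 131 and 137 FPKM with adATF4. The cultures of a group lay close together, and those of the other group far away, for both genes. On the log2(FPKM + 1) scale, which understates changes of low genes, Cth rose by 5.09 ± 0.13 (SE; limma adjusted p = 4.64e-09), the 7th largest rise among the 10571 genes, and 44.1-fold in mean FPKM. Asns rose by 2.81 ± 0.09 (adjusted p = 1.25e-08), 7.17-fold in mean FPKM.

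Aldh18a1 read 16.7, 14.9 and 11.6 FPKM with adGFP and 76.1, 72.5 and 76.5 FPKM with adATF4. Pycr1 read 4.11, 2.48 and 1.08 FPKM with adGFP and 17.9, 27.1 and 16.9 FPKM with adATF4. Groups did not overlap for either, though the adGFP cultures of Pycr1 differed among themselves. Aldh18a1 rose by 2.32 ± 0.13 (limma adjusted p = 4.56e-07; 5.21-fold in mean FPKM) and Pycr1 by 2.67 ± 0.30 (adjusted p = 5.02e-05; 8.07-fold). Prodh read 4.96, 4.72 and 3.16 FPKM with adGFP and 1.15, 2.20 and 2.81 FPKM with adATF4, and was the member that fell. Its change was -0.81 ± 0.24 (adjusted p = 0.0178), and it was not called without adGFP replicate 1 (-0.71, adjusted p = 0.0563), adGFP replicate 2 (-0.74, adjusted p = 0.0646) or adATF4 replicate 1 (-0.58, adjusted p = 0.0682).

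Of the transaminases, Gpt2 rose clearly and Got1 slightly. Gpt2 read 4.47, 2.81 and 3.33 FPKM with adGFP and 18.8, 17.3 and 18.7 FPKM with adATF4, a change of 2.10 ± 0.17 (limma adjusted p = 4.47e-06; 5.16-fold in mean FPKM). Got1 read 67.2, 65.7 and 68.3 FPKM with adGFP and 84.8, 88.7 and 84.6 FPKM with adATF4, a change of 0.35 ± 0.08 (adjusted p = 0.00509; 1.28-fold). Groups did not overlap for either enzyme, and the Got1 difference, though small, was larger than the spread between cultures. Cbs read 0.0523, 0.192 and 0.0569 FPKM with adGFP and 0.167, 0.159 and 0.159 FPKM with adATF4, below the filter in every culture, and the groups overlapped. The 7 fibroblast markers, all detected, summed to 1082 to 1199 FPKM in the adGFP cultures and to 399 to 440 FPKM in the adATF4 cultures; the 6 cardiomyocyte markers summed to 19929 to 22048 and 19020 to 19341 FPKM. The part of fibroblasts in the enzyme values was not tested.

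**Figure D4:**
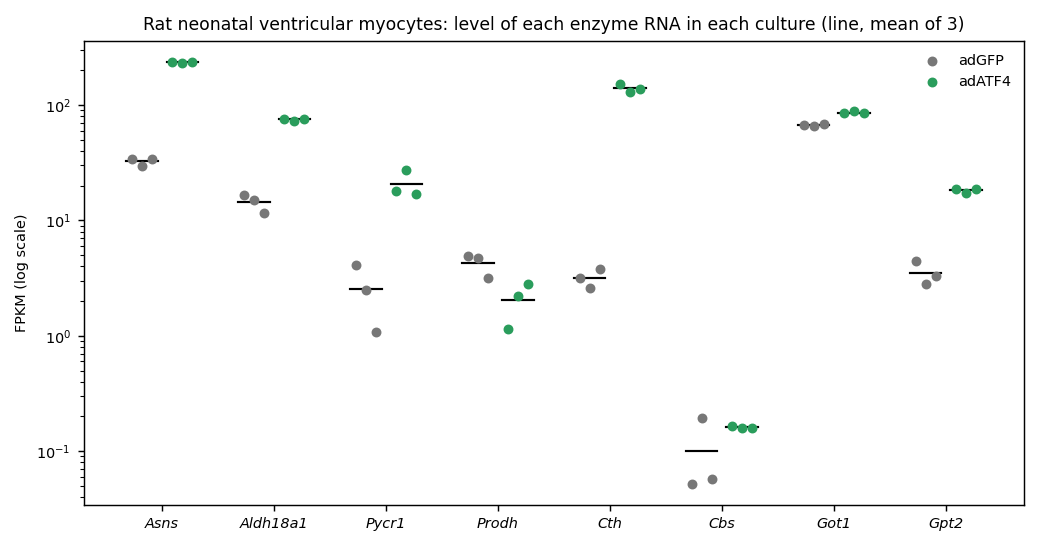
Level of each enzyme RNA (FPKM, log axis) in the 3 adGFP and 3 adATF4 cultures of rat myocytes; points are cultures and lines the mean of 3. The adATF4 points lie above the adGFP points for Asns, Aldh18a1, Pycr1, Cth, Got1 and Gpt2 and below them for Prodh, and the groups overlap for Cbs.

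Gene by gene, the directions in the rat cells and in the hearts at TAC 3 d were alike for some members and unlike for others. Asns, Aldh18a1 and Pycr1 were higher with added ATF4 and lower in cKO hearts. Prodh was lower with added ATF4 and higher in cKO hearts. Got1 was higher with added ATF4 and also higher in cKO hearts at TAC 3 d, while Gpt2 and Cth, which rose 5.16-fold and 44.1-fold in the rat cells, were not called between the genotypes at any of the 3 conditions in edgeR with all libraries (DESeq2 called Gpt2 at TAC 7 d). The heart calls of Pycr1 and Got1 were lost without ctrl TAC 3 d replicate 3 or without cKO TAC 3 d replicate 2. Without both libraries, Asns alone stayed called, in a fit that called 450 of the 15535 genes. The rat call of Prodh was lost without adGFP replicate 1, adGFP replicate 2 or adATF4 replicate 1. The organisms, the cell mixtures and the units differ, and no test joined the hearts and the rat cells.

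Around these enzymes, 45 neighbours in 5 pathway lists were examined, of which 35 passed the filter in hearts and 34 in rat cells. The neighbours were tested with all libraries only. How far their calls rest on the libraries that stood apart was not tested. Between cKO and ctrl hearts 0 of 35 were called in sham hearts (edgeR), where 0.0193% of all genes were called. Of these neighbours 9 were higher and 2 lower at TAC 3 d, beside 7.73% and 9.36% of all genes, and at TAC 7 d 1 was higher, beside 0.116% of all genes. Of the sister enzymes, mitochondrial Got2 was at 0.44 ± 0.16 log2 units at TAC 3 d (adjusted p = 0.0758) and cytosolic Gpt at 0.80 ± 0.35 (adjusted p = 0.119). Aldh4a1, which takes the product of Prodh on to glutamate, was higher in cKO hearts by 0.76 ± 0.17 log2 units (adjusted p = 0.00749). Kyat3 (1.07 ± 0.23, adjusted p = 0.00705) and Kyat1 (0.74 ± 0.15, adjusted p = 0.00562), which transaminate kynurenine, were higher too. Psat1, the transaminase of serine synthesis, was lower by -1.03 ± 0.26 (adjusted p = 0.0137).

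From sham to TAC 3 d in ctrl hearts 4 of the 35 neighbours rose and 17 fell (edgeR), beside 14.8% and 12.4% of all genes, and their median was -0.40 log2 units against -0.0014 over all genes. In the list of methionine and cysteine enzymes 7 of 11 fell and 0 rose, read against the same shares of all genes, among them Mtr, methionine synthase (-0.91 ± 0.19, adjusted p = 0.00298), and Tst, a thiosulfate sulfurtransferase (-0.73 ± 0.16, adjusted p = 0.00439). Psat1 rose by 1.84 ± 0.27 (adjusted p = 0.000370) and Ass1, which joins aspartate to citrulline, by 1.08 ± 0.32 (adjusted p = 0.0193). Aldh4a1 fell by 0.95 (SE 0.17, adjusted p = 0.000990), in the direction of Prodh. With adATF4 in the rat cells 10 of 34 neighbours rose and 12 fell (limma), near the 24.2% and 26.4% of all genes that did so. Psat1 rose by 2.74 ± 0.13 (adjusted p = 1.87e-07), Cdo1, which oxidises cysteine, by 2.71 ± 0.14 (adjusted p = 2.50e-07), and Bcat1, the cytosolic branched-chain transaminase, by 2.39 ± 0.09 on the log2(FPKM + 1) scale (adjusted p = 3.19e-08). The reductase Pycrl fell (-1.04 ± 0.17, adjusted p = 0.000697) in the same cultures in which Pycr1 rose.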

How the data were processed

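The 24 samples were grouped by their titles into 6 mouse heart groups and 2 rat culture groups of 3. Heart values deposited by the authors are whole-number read counts, not normalized, and FPKM, both per Ensembl gene; for the rat cells they deposited FPKM per symbol only. The authors' deposited log2 fold changes and their adjusted p-values, with no test stated, are quoted where that table is named. Bowtie 0.12.2 and the build mm9 stand in the submitters' processing notes with no role, for the rat samples too; the sources used here do not give the counting tool or whether it used strand. Gene positions in the file are those of GRCm38: chromosome, start and end equalled those of GENCODE M21 for 53499 of the 54409 IDs it holds. Of 17327 rat rows, 26 had calendar dates as names and were removed. Of the per-sample columns in the rat file, 6 matched no sample and were not used.

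Heart counts were tested with edgeR 4.0.16 (R 4.3.3): filterByExpr left 15535 genes with 99.9% of counts, TMM gave the library scaling, and all 6 groups stood in 1 quasi-likelihood model; SE is the log2 fold change over the root of F. Levels are TMM-scaled CPM. Rat values were tested with limma 3.58.1 (trend) on log2(FPKM + 1) for the 10571 genes that reached 1 FPKM in at least 3 libraries; rat depth is unknown. P-values were two-sided and adjusted by Benjamini-Hochberg over all genes tested, and a gene is called at adjusted p under 0.05. Scripts were tested on simulated data. Likeness is Pearson r of log2 CPM with a prior count of 2. Alternatives were RLE scaling, library totals, no filter, DESeq2 1.42.0, a replicate block, the compared groups alone, a rat pseudocount of 0.1, and libraries left out. The genes named are the 8 enzymes, Atf4 and, of each neighbour list, up to 3 called members of smallest adjusted p, with the sister enzymes Got2 and Gpt added after their values were seen. The members and lists were chosen with earlier results of these data known. Symbols shared by several mouse IDs numbered 102.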

Additional observations from a re-analysis of the deposited data

Results flagged for a closer look

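For 5 enzymes the difference between cKO and ctrl hearts changed from TAC 3 d to TAC 7 d by a test of that change itself, in the contrast added after the data were seen (edgeR, 12 libraries, adjusted over 15535 genes). Of all genes tested, 21% were called in that contrast. The change was 1.21 log2 units for Asns (genotype difference -1.35 at 3 days and -0.14 at 7 days) and 2.37 for Pycr1 (-1.80 and 0.57), which was carried in part by ctrl TAC 3 d replicate 3 (1.56 without it). It was -1.94 for Prodh (1.61 and -0.33), -1.72 for Gpt2 (0.74 and -0.98) and -1.36 for Got1 (0.88 and -0.48). Asns stayed called in 7 of the 12 fits with 1 library left out. Without both TAC 3 d libraries that stood apart, only Got1, Gpt2 and Prodh were called, in a fit that called 1669 of 15535 genes. TAC 3 d and TAC 7 d libraries also differed in how level followed gene length (Spearman rho 0.10 to 0.25 in the 6 TAC 7 d libraries, -0.30 to 0.01 in the other 12). The part of this in the contrast was not tested. Nor was its part tested in the contrasts of TAC 7 d with sham or with TAC 3 d within a genotype.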

How the results depend on the processing

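The replicate numbers showed no pairing of the heart libraries. Deviations of same-numbered heart libraries from their group means had correlations of -0.39 to 0.24 (median 0.00055, above 0.1 in 6 of 45 pairs). Those of the rat cultures were -0.06 to 0.22 (median 0.14, against -0.08 between other numbers). With 3 same-numbered rat pairs, pairing there cannot be decided. Of all libraries, 8 of 24 correlated best with their own number. With the replicate block the members called were 5 for cKO against ctrl at TAC 3 d, 6 for TAC 3 d against sham in ctrl and 7 in rat cells, as without it, 0 in place of 1 for TAC 7 d against sham in ctrl, and 2 in place of 3 for TAC 7 d against sham and against TAC 3 d in cKO.

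Counts of members called, with each library left out in turn, were 3 to 7 for cKO against ctrl at TAC 3 d, 0 to 1 for the mean of the 3 conditions, 4 to 7 for TAC 3 d against sham in ctrl, 0 for TAC 7 d against sham in ctrl, 1 to 3 for that in cKO, 0 to 4 for TAC 7 d against TAC 3 d in each genotype, 0 to 3 for the interaction at 3 days, 4 to 7 for the change of the genotype difference from 3 to 7 days and 6 to 7 in rat cells. In that order, the shares of all genes called with all libraries were 17.1%, 0.766%, 27.2%, 7.29% and 21.8%. They went on with 14.8% in ctrl and 19.5% in cKO, 0.669%, 21% and 50.6%. The shares with 1 library left out are not given here. Counts of members were 0 throughout for cKO against ctrl at sham and at TAC 7 d, for TAC 3 d against sham in cKO and for the interaction at 7 days. With no filter on low counts they were 1 for cKO against ctrl at TAC 7 d, 2 for the mean of the 3 conditions, 2 for TAC 7 d against sham in ctrl, 4 and 5 for TAC 7 d against TAC 3 d in ctrl and cKO, and 5 for the interaction at 3 days. DESeq2 gave 1, 2 and 3 for cKO against ctrl at TAC 7 d, the mean and TAC 7 d against TAC 3 d in ctrl, and 3 for the interaction at 3 days. RLE scaling gave 1 for the mean. Library totals gave 0 for TAC 7 d against sham in ctrl, 3 for TAC 7 d against TAC 3 d in ctrl and 1 for the interaction at 3 days, where the calls over all genes were 24 higher and 261 lower in place of 28 and 76. Only the groups compared, with fewer samples behind the spread, gave 0 for cKO against ctrl at TAC 3 d (113 genes in all in place of 2655), 2 for TAC 7 d against sham in ctrl and 0 for TAC 7 d against TAC 3 d in each genotype. Without both TAC 3 d libraries that stood apart the counts were 1 and 2 for cKO against ctrl at TAC 3 d and 7 d and 3 for the change between the days; over all genes 450 and 1219 were then called, in place of 2655 and 40. Without all 3 libraries that stood apart, chosen after seeing the data, they were 3 at TAC 3 d, 4 for TAC 7 d against sham in ctrl, 2 for TAC 7 d against TAC 3 d in ctrl and 3 for the change between the days. Where no construction is named, the cause was not tested. The rat counts were the same with a pseudocount of 0.1 and with no filter.

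Over all heart genes, the calls between cKO and ctrl at TAC 7 d were 40, against 1149 with no filter, 492 with DESeq2, 24 with the replicate block, 13 with the 2 groups alone and 260 without the 3 libraries. For the interaction at 3 days they were 104, against 1597 with no filter, 863 with DESeq2, 0 without both TAC 3 d libraries and 16 without all 3. For the mean of the 3 conditions they were 119, against 810, 476, 245 and 223 in the same order. For TAC 7 d against sham in ctrl they were 1132, against 1715, 1758, 2198 and 2869 in that order and 2572 with the 2 groups alone. For cKO against ctrl at sham they were 3, against 67, 16, 15 and 21 in that order, 33 with the 2 groups alone and 0 with the block. For cKO against ctrl at TAC 3 d they were 747 without the 3 libraries. For TAC 3 d against sham in ctrl 4225 became 2292 with the 2 groups alone and 2598 without both; for TAC 7 d against TAC 3 d, 2293 became 38 and 1026 in ctrl, and 3037 became 1536 with the 2 groups alone in cKO. For the change between the days 3266 became 1669 without both and 1286 without all 3. With no filter, 219 were called for TAC 3 d against sham in cKO and 96 for the interaction at 7 days, in place of 0.

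Signs that turned belonged to values not called in any setting. For cKO against ctrl at sham, Asns was 0.0133 with library totals and -0.20 to 0.11 with libraries left out; Pycr1 was -0.00035 with no filter, -0.0022 with DESeq2 and with the replicate block, and -0.29 to 0.25 with libraries left out; Cth was -0.0804 to 0.99. Asns at TAC 7 d was 0.0746 without the 3 libraries and -0.33 to 0.0782 with libraries left out. Got1 over the mean of the 3 conditions was -0.0845 without both TAC 3 d libraries, -0.0789 without all 3, and -0.0052 to 0.15. Cth for TAC 7 d against sham in ctrl ran from -0.78 to 0.45. For TAC 3 d against sham in cKO, Aldh18a1 ran from -0.21 to 0.27 and Asns from -0.0563 to 0.11. Aldh18a1 for TAC 7 d against TAC 3 d in ctrl was 0.0393 without both, 0.0395 without all 3, and -0.28 to 0.0392. In the interaction at 7 days Aldh18a1 was 0.0761 and Asns 0.10 without the 3 libraries, with ranges of -0.31 to 0.17 and -0.30 to 0.11. Depth limits Cbs, Cth, Asns and Pycr1 in hearts, whose counts are lowest.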
